A study of Homo sapiens with 51 samples.

Results

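The comparison described here set PANC1 cells given a lentiviral OVOL2 open reading frame against PANC1 cells given a lentiviral mCherry open reading frame, both without M2rtTA. It holds 6 of the 51 libraries of the study, chosen by their titles: 3 libraries of each kind, called OVOL2 1 to 3 and mCherry 1 to 3 below by the number in the title. PANC1 is an established line of human pancreatic ductal adenocarcinoma (PDA), and mCherry is a fluorescent protein used as the negative control. Per the labels, both groups received virus at a multiplicity of infection of 2 with 8 µg/ml polybrene in 6-well plates. On the next day both received 2.5 µg/ml puromycin and 0.6 µg/ml doxycycline, so virus, selection and doxycycline are shared by the groups compared. A parallel pair of PANC1 groups carried the same open reading frames together with a second virus for M2rtTA, a protein that switches on tetracycline-inducible promoters when doxycycline is present. Untreated PANC1 received none of these agents. Total RNA, 100 ng per library, was taken after 6 days of culture and read by PLATE-seq, a method that barcodes 3′-end cDNA in each well and pools the wells before amplification. The labels speak of triplicate transductions and give no further link between wells, so the 3 libraries of a group are treated as replicates. The p-values below set each change against the spread between libraries within groups. That spread was estimated from the 15 PANC1 libraries of 5 groups, not from the 6 compared alone. The promoter that drives each open reading frame, and whether the line was recloned, are not given in the sources used here.

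OVOL2 is a zinc-finger transcription factor of epithelia and acts mainly as a repressor. Its best known target is ZEB1, a repressor that holds cells in a mesenchymal state by shutting off genes of cell junctions such as CDH1. Carcinoma cells that pass from the epithelial to the mesenchymal state lose junctions and apical-basal polarity and gain vimentin filaments, matrix and motility, a passage known as epithelial-mesenchymal transition (EMT). PANC1 is commonly used as a PDA line with mesenchymal features.

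The 6 libraries held between 3824271 and 7490556 counts. The levels below are CPM, counts per 1000000 counts of a library total that TMM scaling corrects for composition. The OVOL2 gene itself had 4, 16 and 2 counts in mCherry 1, 2 and 3, and 4, 6 and 1 counts in OVOL2 1, 2 and 3, so its own row gives no check of the labels. Whether transcripts of the vector were counted to the OVOL2 row was not tested. Mitochondrially encoded genes took 22.5% to 25.9% of the counts with mCherry, 28.3% to 29.1% with OVOL2 and 25.8% to 27.0% in untreated PANC1. Ductal line markers (8 of 8 detected in every library) summed, before scaling, to 2316 to 2840 CPM with mCherry and 2386 to 2588 with OVOL2, while fibroblast markers summed to 26.6 to 30.4 and 22.8 to 27.7. Leukocyte markers (5.42 to 6.28 with mCherry, 2.09 to 5.80 with OVOL2), endothelial markers (6.68 to 11.8 and 4.32 to 7.66) and acinar and islet markers (0.564 to 2.00 and 0.696 to 1.57) were each near 0, and LUM, CPA1, INS and CD3D had 0 counts in all 6 libraries. In 260 of the tested genes 1 library held at least 5 times the level of both others of its group. LMOD3, singled out after its values were seen, had 222230 counts in mCherry 2 and 7 to 30 in the other 5 libraries. Such genes are treated here as unreliable, although those called stay in the counts of calls below.

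Of 13218 genes tested with edgeR's quasi-likelihood test, 671 passed a Benjamini-Hochberg adjusted p of 0.05, which is 5.08% of all tested genes. Among them 280 were higher with OVOL2 (2.12%) and 391 were lower (2.96%). Counts of calls in the gene lists below are to be read against these 2 shares. The lists were chosen with earlier results of these data known, so a list share above them is a description and not a test. The median log2 fold change over all tested genes was −0.02, and the median absolute value over the called genes was 1.03. Changes of at least 2-fold were seen in 132 of the higher and 218 of the lower genes, and changes of at least 4-fold in 37 and 46. The 3 OVOL2 libraries did not overlap the 3 mCherry libraries in 655 of the called genes, while such a separation was found for 11.6% of all tested genes upwards and 12.8% downwards. Genes named as the largest rises and falls were picked among those with separate groups, so their separation below was fixed by that choice. Without mCherry 1, 2 or 3 the number of calls fell to 422, 406 or 343, and without OVOL2 1, 2 or 3 to 421, 370 or 344. A core of 223 genes, 97 higher and 126 lower, was called whichever of the 6 libraries was left out, and the genes described with a library-by-library account below belong to it unless stated. The plot of fold change against level shows the called genes spread over the whole range of expression, with 17 of them drawn as open circles because 1 library stood far above its group.

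**Figure D1:**
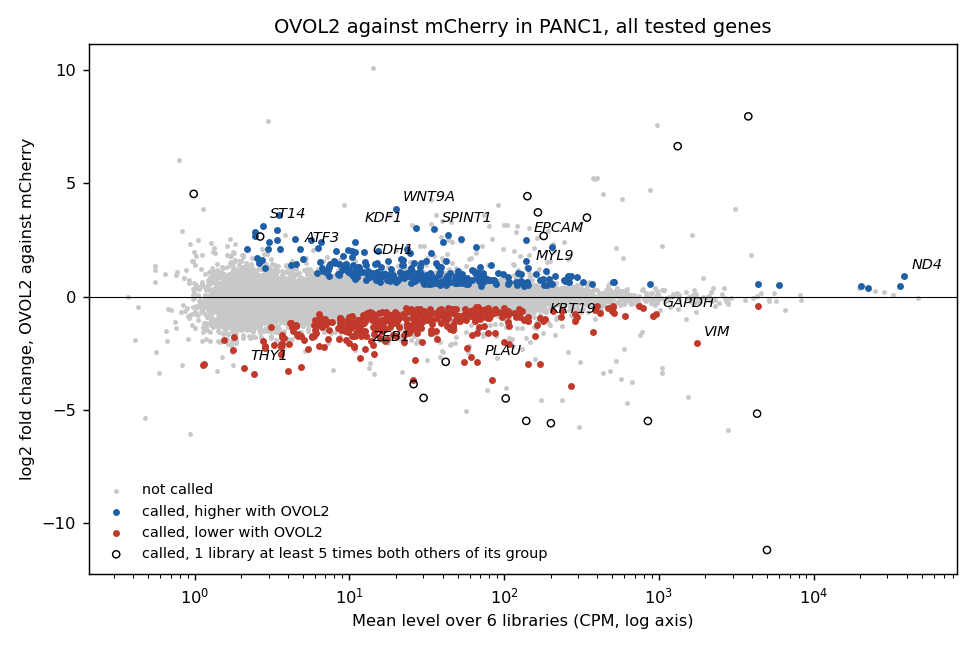
Each point is a tested gene: the horizontal axis gives its mean level over the 6 libraries in CPM on a log axis, the vertical axis its log2 fold change with OVOL2 against mCherry. Genes called higher are blue, those called lower are red and grey genes were not called. Open circles mark, in place of a colour, the 17 of the 671 called genes in which 1 library held at least 5 times the level of both others of its group.

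Rises with OVOL2 among genes of epithelial junctions were called for 3 of 16 tested genes of adherens junctions and epithelial adhesion, 3 of 18 of tight junctions and 3 of 16 of desmosomes and hemidesmosomes, led by CLDN7 and EPCAM. These shares were 18.8%, 16.7% and 18.8%, against 2.12% of all tested genes called higher. EPCAM, an adhesion molecule of simple epithelia, stood at 42.8, 42.9 and 38.0 CPM in mCherry 1, 2 and 3 and at 233, 236 and 239 CPM in OVOL2 1, 2 and 3. The 3 OVOL2 libraries lay within a few CPM of each other and far above all 3 mCherry libraries (log2 fold change 2.52, SE 0.16, adjusted p = 8.22e-07, edgeR's quasi-likelihood test). In untreated PANC1 the level was 35.4 ± 6.08 CPM (SD, n = 3), close to that with mCherry. CDH1, the cadherin of epithelial adherens junctions, was lowly expressed throughout, with 6.44, 3.78 and 5.19 CPM under mCherry and 16.5, 24.3 and 17.9 CPM under OVOL2. Every OVOL2 library was again above every mCherry library (log2 fold change 1.95, SE 0.36, adjusted p = 0.00586). CTNNA1, the alpha-catenin that ties cadherins to actin, rose from 71.3, 77.8 and 78.7 CPM to 119.9, 139 and 150.4 CPM (log2 fold change 0.85, SE 0.15, adjusted p = 0.00449). These were the 3 calls among 16 tested genes of adherens junctions and epithelial adhesion, where the median log2 fold change was 0.35. In bulk libraries a rise in a few cells and a smaller rise in all cells cannot be told apart, and neither can fewer cells of a type and less RNA per cell.

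CLDN7, a claudin that seals tight junctions, gave 19.3, 13.6 and 13.4 CPM with mCherry and 72.7, 97.9 and 97.0 CPM with OVOL2 (log2 fold change 2.54, SE 0.22, adjusted p = 1.30e-05). The lowest OVOL2 library was thus well over the highest mCherry library. LSR, a receptor at junctions where 3 cells meet, went from 23.2, 20.7 and 18.9 CPM to 51.8, 50.01 and 60.0 CPM, and F11R, the adhesion molecule JAM-A, from 42.6, 36.9 and 34.7 CPM to 85.6, 83.4 and 90.2 CPM. Both rises separated the groups fully, with log2 fold changes of 1.37 (SE 0.16) and 1.18 (SE 0.14) and the same adjusted p of 0.000179. Tight junction genes had 3 rises and 0 falls among 18 tested members (median log2 fold change 0.27), and all 3 calls remained whichever library was left out. In the desmosome and hemidesmosome list 3 genes were higher and 1 lower (6.25%, against 2.96% of all tested genes) among 16 (median 0.35). PKP3, a plakophilin of desmosomes, rose from 3.22, 5.27 and 3.90 CPM to 12.9, 10.7 and 12.1 CPM (log2 fold change 1.498, SE 0.27, adjusted p = 0.00565). JUP, plakoglobin, was called higher (log2 fold change 0.86, adjusted p = 0.0339), but not without mCherry 1, 2 or 3 (adjusted p = 0.106, 0.0782 and 0.106) nor without OVOL2 1 or 2 (0.145 and 0.0543). PERP, a desmosomal membrane protein, was lower (log2 fold change −0.998, adjusted p = 0.0128), and its adjusted p was 0.0599 without OVOL2 1 and 0.0516 without OVOL2 2.

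Genes of apical polarity and epithelial membrane trafficking had 9 rises (32.1%, against 2.12% of all tested genes) and 0 falls among 28 tested members. The median log2 fold change was 0.54. Leaving out any 1 of the 6 libraries left 6 rises each time, and KDF1, LLGL2, RAB17 and STX3 were called in every one of these fits. KDF1, a regulator of keratinocyte differentiation, was at 7.36, 5.40 and 4.82 CPM with mCherry and 49.9, 46.2 and 47.0 CPM with OVOL2. Its 3 OVOL2 libraries differed by little and exceeded all mCherry libraries by a wide margin (log2 fold change 3.03, SE 0.20, adjusted p = 8.22e-07). RAB17, a small GTPase of epithelial recycling endosomes, had 0, 3 and 6 counts with mCherry and 22, 26 and 36 counts with OVOL2. The ratio of its summed levels was 12.6, with an exact 95% interval of 6.33 to 28.5 that covers counting error only (adjusted p = 0.00415). CRB3, the epithelial member of the Crumbs polarity complex, had 1, 11 and 1 counts with mCherry and 17, 28 and 13 with OVOL2. Its groups did not overlap, but mCherry 2 stood apart from its group, which places CRB3 among the genes treated here as unreliable. The call (log2 fold change 2.65, adjusted p = 0.0334) was lost without mCherry 1 (0.105), mCherry 3 (0.117), OVOL2 1 (0.0741) or OVOL2 2 (0.117).

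In the list of membrane serine proteases and inhibitors, an enzyme and its inhibitor were called higher. The median log2 fold change of the 10 tested genes was 0.26, and 4 of them were negative. ST14 encodes matriptase, a membrane-bound serine protease, and had 4, 2 and 3 counts with mCherry against 16, 25 and 22 with OVOL2. That is a ratio of 9.45, with an exact 95% counting interval of 4.67 to 21.6 (adjusted p = 0.00454). SPINT1, its Kunitz-type inhibitor, had 5.06, 11.5 and 6.86 CPM with mCherry and 57.9, 53.3 and 77.6 CPM with OVOL2 (log2 fold change 2.98, SE 0.28, adjusted p = 2.61e-05). Neither gene overlapped between groups, and they were the 2 calls among 10 tested members of this list (20%, against 2.12% of all tested genes). ESRP1, the splicing factor that makes epithelial isoforms, had 0.690, 3.51 and 2.41 CPM with mCherry and 11.5, 9.05 and 10.3 CPM with OVOL2. The groups did not overlap (log2 fold change 2.13, adjusted p = 0.0431), yet the adjusted p was 0.122, 0.0553 and 0.117 without mCherry 1, 2 and 3 and 0.106, 0.0744 and 0.102 without OVOL2 1, 2 and 3. Its relative ESRP2 was called too (log2 fold change 0.89, adjusted p = 0.0328), with 0.110, 0.0614, 0.0892, 0.107, 0.0522 and 0.0766 in the same 6 fits. The list of epithelial transcription and splicing factors had 3 rises (16.7%, against 2.12% of all tested genes) among 18 tested genes. It had 1 rise in each fit without a library. Among 9 tested keratins none was higher and 1 was lower (11.1%, against 2.96% of all tested genes). KRT19, a keratin of ductal cells, had 254, 225 and 239.9 CPM with mCherry and 107, 111 and 126 CPM with OVOL2 (log2 fold change −1.07, SE 0.15, adjusted p = 0.000756), all OVOL2 libraries being below all mCherry libraries. Untreated PANC1 had 473 ± 34.5 CPM (SD, n = 3) of KRT19, above both transduced groups.

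**Figure D2:**
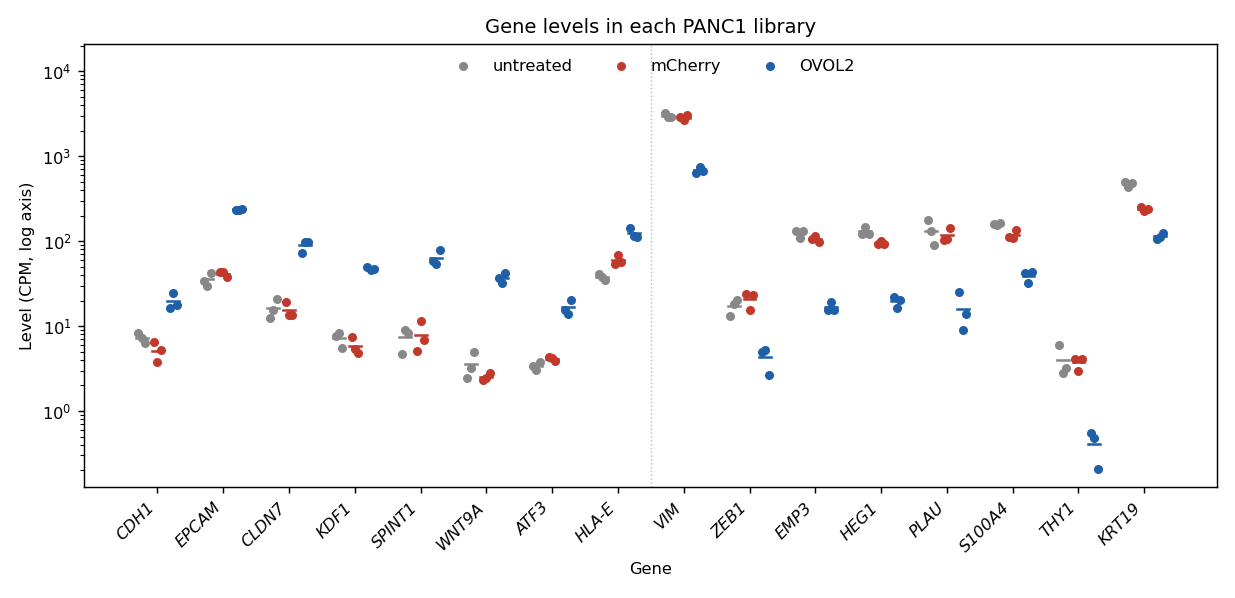
Level of 16 genes in each library in CPM on a log axis, with 3 libraries per group as points and their mean as a short line (grey untreated, red mCherry, blue OVOL2). Left of the dotted line stand 8 genes higher with OVOL2, right of it 8 genes lower with OVOL2, and in each the 3 blue points lie apart from the 3 red points.

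Among 12 tested transcription factors of EMT, ZEB1 fell (8.33% of the list, against 2.96% of all tested genes) and no other was called. It had 24.2, 15.5 and 23.2 CPM with mCherry and 4.94, 5.24 and 2.67 CPM with OVOL2, a separation of all 3 libraries (log2 fold change −2.30, SE 0.35, adjusted p = 0.00173). Untreated PANC1 was at 17.2 ± 3.74 CPM (SD, n = 3). The median log2 fold change of this list was −0.18. VIM, the intermediate filament protein of mesenchymal cells, fell as well. Its levels were 2865, 2656 and 3016 CPM with mCherry and 642, 741 and 679 CPM with OVOL2, so that the lowest mCherry library stood far above the highest OVOL2 library (log2 fold change −2.05, SE 0.11, adjusted p = 1.55e-07). EMP3, a membrane protein of mesenchymal cells, dropped from 105, 114 and 97.4 CPM to 15.4, 19.1 and 15.6 CPM (log2 fold change −2.66, SE 0.14, adjusted p = 1.55e-07). MYL9, a myosin light chain of contractile fibres, moved the other way, from 87.2, 81.5 and 81.4 CPM to 207, 168 and 232 CPM (log2 fold change 1.28, SE 0.15, adjusted p = 0.000255). The mesenchymal cytoskeleton list thus had 3 rises and 3 falls among 29 tested genes, 10.3% each, against 2.12% and 2.96% of all tested genes. Of these calls MYL9, EMP3 and VIM were kept whichever library was left out. The rises numbered 2, 1 and 3 without mCherry 1, 2 and 3 and 2 in each fit without an OVOL2 library, and the falls numbered 2 in all 6 fits.

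Mesenchymal adhesion and surface genes had 6 falls (25%, against 2.96% of all tested genes) and 0 rises among 24 tested members. Their median log2 fold change was −0.68. The falls numbered 6, 5 and 3 without mCherry 1, 2 and 3 and 3, 4 and 2 without OVOL2 1, 2 and 3. HEG1, a transmembrane receptor of endothelial and other junctions, fell from 93.2, 100.2 and 93.7 CPM to 21.9, 16.4 and 20.5 CPM (log2 fold change −2.28, SE 0.17, adjusted p = 4.43e-06). THY1, a surface glycoprotein of fibroblasts, had 18, 22 and 22 counts with mCherry and 2, 2 and 1 with OVOL2, a ratio of 9.19 with an exact 95% counting interval of 3.73 to 29.3 (adjusted p = 0.0045). Both genes were called in every fit without a library, and their groups did not overlap. CDH2, the cadherin of mesenchymal and neural cells, was at 6.90, 4.73 and 8.35 CPM with mCherry and 1.37, 2.62 and 0.616 CPM with OVOL2 (log2 fold change −2.11, adjusted p = 0.0137). The CDH2 call was lost without mCherry 3 (adjusted p = 0.0577), OVOL2 1 (0.0504) or OVOL2 3 (0.0663).

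Of 36 tested collagens and matrix proteins 7 were called lower (19.4%, against 2.96% of all tested genes) and 0 higher. The other 29 were not called, 11 of the 36 had a positive fold change, and the median log2 fold change was −0.47. Without mCherry 1, 2 and 3 the falls numbered 6, 5 and 4, and without OVOL2 1, 2 and 3 they numbered 5, 4 and 4. LOXL2 and LOXL1 encode lysyl oxidases, which crosslink collagen and elastin. LOXL2 went from 34.3, 35.9 and 39.3 CPM to 14.5, 12.4 and 9.45 CPM (log2 fold change −1.60, SE 0.19, adjusted p = 0.000218), and LOXL1 from 9.20, 9.18 and 8.90 CPM to 1.92, 3.57 and 2.67 CPM (log2 fold change −1.72, SE 0.27, adjusted p = 0.00189). COL5A2, a chain of fibrillar collagen V, had 76.2, 62.9 and 59.0 CPM with mCherry and 34.6, 32.4 and 35.7 CPM with OVOL2 (log2 fold change −0.95, SE 0.13, adjusted p = 0.000967). In all 3 genes each OVOL2 library was below each mCherry library, and the calls held in every fit without a library. SPARC, a secreted matrix glycoprotein, was lower too (log2 fold change −1.94, adjusted p = 0.0126), but not called without OVOL2 2 (0.0570) or OVOL2 3 (0.0743). Integrins and laminins had 1 rise and 2 falls among 23 tested genes (4.35% and 8.7%, against 2.12% and 2.96% of all tested genes). ITGA3, the alpha chain of a laminin receptor, fell from 161, 149 and 161 CPM to 83.7, 86.0 and 78.7 CPM (log2 fold change −0.92, SE 0.11, adjusted p = 0.000319). The second fall, LAMB2 (log2 fold change −1.27, adjusted p = 0.0181), was lost without mCherry 1 (0.0551), mCherry 2 (0.0602), OVOL2 2 (0.0749) or OVOL2 3 (0.0925).

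Among 23 tested genes that control pericellular proteolysis 3 fell (13%, against 2.96% of all tested genes) and 1 rose (4.35%, against 2.12%). The 4 calls held whichever library was left out, and the other 19 genes were not called. PLAU, the urokinase plasminogen activator, had 103, 107 and 145 CPM with mCherry and 25.2, 9.05 and 13.8 CPM with OVOL2 (log2 fold change −2.89, SE 0.40, adjusted p = 0.000785). MMP2, a gelatinase, went from 61.9, 60.5 and 49.7 CPM to 28.8, 27.9 and 32.2 CPM (log2 fold change −0.95, SE 0.18, adjusted p = 0.00664). CTSV, a lysosomal cysteine protease, rose from 11.7, 9.86 and 9.09 CPM to 35.9, 44.8 and 36.4 CPM (log2 fold change 1.93, SE 0.17, adjusted p = 1.14e-05). None of PLAU, MMP2 and CTSV overlapped between the groups.

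Promoter sequence was set beside these calls for 2 short motifs: CCGTTA, the core bound by proteins of the OVO family, and CAGGTG, the E-box bound by ZEB1 and SNAI factors. Both were searched on both strands (also as TAACGG and CACCTG) in the 250 bases before each start listed by RefSeq on GRCh38.p14, in 35116 starts of 27305 symbols. Of 13218 tested genes 10429 had such a window, and 4.23% of those held CCGTTA, against 3.04% of all symbols. The motif was present in 8.72% of the genes called lower (26 of 298 with a window) and in 3.40% of those called higher (7 of 206). CAGGTG was found in 20.7% of tested genes and 20.6% of all symbols, in 29.1% of the genes called higher (60 of 206) and in 19.8% of those called lower (59 of 298). These shares are descriptions of letters in a window. A gene with several listed starts had more chances of a match. No promoter of CDH1, EPCAM, ST14 or F11R was in the table.

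The stretches of 30 bases around CCGTTA are shown for ZEB1, S100A4, NRG2 and BUB1B, which were called lower. One is also shown for CRB3, which was called higher but is among the genes treated as unreliable. The stretches place the motif relative to the start. The genes whose windows are described were picked with their fold changes known, so they are examples and not a sample of either direction. Stretches are shown only where the motif was found. The windows of VIM, HEG1, EMP3 and CDH2, also called lower, held no CCGTTA. Neither did those of KDF1, CLDN7, SPINT1, LSR and WNT9A, which were called higher. Each stretch is written 5′ to 3′ on the strand of its gene with the motif in capitals. In ZEB1 it began 203 bases before the fourth of 7 listed starts (chr10:31319553-31319582, plus strand, GRCh38.p14). In S100A4 it began 182 bases before the start (chr1:153545971-153546000, minus strand), in NRG2 222 bases before the first of 2 starts (chr5:140043504-140043533, minus strand) and in BUB1B 31 bases before the start (chr15:40161026-40161055, plus strand). In CRB3 it began 153 bases before the single listed start (chr19:6464106-6464135, plus strand). The ZEB1, S100A4, BUB1B and CRB3 windows overlap annotated exons, and the NRG2 window overlaps none.
ZEB1: cgcctccctggaCCGTTAgccggcgccgac
S100A4: gctagggcttacCCGTTAcccacgggtgcc
NRG2: ggtgccaggagcCCGTTAtctcttcttcgc
BUB1B: gaccgcgcgggaCCGTTAaatttgaaactt
CRB3: gggactggggtcCCGTTAcaggtgcgccca

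CAGGTG was found in windows of genes of both directions. Of the genes described here that were called higher, KDF1 held 2 copies, CRB3 5, CLDN7 4 and SPINT1 1, and the windows of LSR and WNT9A held none. Of those called lower, ZEB1 held 3 copies over its 7 listed starts, and S100A4 and BUB1B held 1 each. The windows of NRG2, VIM, HEG1, EMP3 and CDH2 held none. The whole window of KDF1, which overlaps no annotated exon, is printed to show its copies, 204 and 31 bases before its single listed start (chr1:26960469-26960718, minus strand, GRCh38.p14). In CLDN7 1 copy began 135 bases before the second of 2 listed starts (chr17:7262596-7262625, minus strand), in a window that also overlaps annotated exons. Motifs are in capitals.
KDF1: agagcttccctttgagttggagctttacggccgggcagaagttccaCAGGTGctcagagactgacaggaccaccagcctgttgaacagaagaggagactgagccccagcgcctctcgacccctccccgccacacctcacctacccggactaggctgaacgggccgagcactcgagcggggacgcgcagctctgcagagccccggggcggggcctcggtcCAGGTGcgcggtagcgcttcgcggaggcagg
CLDN7: cgacttccggttCAGGTGagtgtcccttcg

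Secreted signals showed large changes in single genes. WNT9A, a WNT ligand, had 2.30, 2.43 and 2.78 CPM with mCherry and 37.3, 31.9 and 42.7 CPM with OVOL2, the steepest of the rises listed by the naming rule (log2 fold change 3.88, SE 0.32, adjusted p = 8.64e-06). No library of one group came near the other group, and untreated PANC1 had 3.54 ± 1.25 CPM (SD, n = 3). The WNT list as a whole had 1 rise (3.03%, against 2.12% of all tested genes) and 3 falls (9.09%, against 2.96%) among 33. Its median log2 fold change was −0.34. The falls were DKK1 (log2 fold change −1.26), DKK3 (−1.16) and TCF7L1 (−0.96), which encode 2 proteins of the Dickkopf family of secreted factors and a transcription factor of the pathway. Falls of that list numbered 4, 4 and 2 without mCherry 1, 2 and 3 and 3, 2 and 1 without OVOL2 1, 2 and 3. DKK1 was not called without OVOL2 2 or 3 (adjusted p = 0.0554 and 0.0563), DKK3 not without mCherry 3 (0.0503) and TCF7L1 not without OVOL2 3 (0.0505). LTB, lymphotoxin beta, a cytokine of the TNF family, rose from 1.61, 2.03 and 1.30 CPM to 9.60, 6.67 and 12.5 CPM (log2 fold change 2.51, SE 0.36, adjusted p = 0.000967). CSF1, the growth factor of macrophages, fell from 61.4, 52.4 and 60.7 CPM to 15.1, 15.7 and 16.8 CPM (log2 fold change −1.87, SE 0.15, adjusted p = 8.23e-06). NRG2, a ligand of ERBB receptors, fell from 18.6, 16.3 and 14.8 CPM to 6.86, 5.24 and 4.11 CPM (log2 fold change −1.63, SE 0.25, adjusted p = 0.00195). For these 3 genes the groups did not overlap. EGFR, a receptor of that family, was called higher (log2 fold change 0.74, adjusted p = 0.0109), with an adjusted p of 0.0539 without mCherry 3.

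The TGF-beta pathway had 1 rise and 1 fall among 39 tested genes, 2.56% each, close to the 2.12% and 2.96% of all tested genes. PMEPA1, a membrane inhibitor of the pathway, rose from 128, 136 and 132 CPM to 241, 196 and 244 CPM (log2 fold change 0.78, SE 0.12, adjusted p = 0.00174). LTBP2, a binding protein of latent matrix complexes, was lower (log2 fold change −1.02, adjusted p = 0.0117), but its call was lost without mCherry 3 (0.0673), OVOL2 1 (0.0509) or OVOL2 2 (0.0622). In 26 targets of YAP and TEAD, 14 NOTCH genes, 30 regulators of apoptosis and 14 mucins and classical PDA markers, 0 genes passed edgeR's quasi-likelihood test. At an unadjusted p under 0.05 these lists had 0 higher and 5 lower, 1 higher and 0 lower, 7 higher and 0 lower, and 0 and 0 genes. DESeq2 called 1 lower YAP and TEAD target, 1 higher NOTCH gene, 2 higher apoptosis genes and 0 mucins and classical markers, and without OVOL2 1 edgeR called 1 lower YAP and TEAD target. MAPK feedback genes had 1 rise and 1 fall among 27, 3.7% each, against 2.12% and 2.96% of all tested genes. DUSP5, a phosphatase of ERK, rose from 18.6, 25.7 and 20.96 CPM to 41.4, 35.7 and 46.4 CPM (log2 fold change 0.92, SE 0.17, adjusted p = 0.00703). DUSP1, a phosphatase of several MAP kinases, was lower (log2 fold change −1.05, adjusted p = 0.0463), and was called without mCherry 1 but not without mCherry 2 (0.130), mCherry 3 (0.176), OVOL2 1 (0.151), OVOL2 2 (0.132) or OVOL2 3 (0.0809).

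Cell shape and calcium-binding genes included several clear changes. RHOD, a small GTPase of actin and endosome movement, rose from 19.6, 21.7 and 26.5 CPM to 53.8, 54.8 and 56.7 CPM (log2 fold change 1.28, SE 0.16, adjusted p = 0.000305). WASF1, a WAVE protein that drives actin branching, fell from 24.6, 23.1 and 26.3 CPM to 9.05, 6.67 and 5.14 CPM (log2 fold change −1.84, SE 0.21, adjusted p = 0.000179). The groups were apart in both genes. Their list had 2 rises (6.25%, against 2.12% of all tested genes) and 1 fall (3.12%, close to the 2.96%) among 32. Its other rise, RHOQ (log2 fold change 0.54, adjusted p = 0.0209), kept its call in the fit without OVOL2 2 alone, the others giving 0.0617, 0.0577 and 0.0824 without mCherry 1, 2 and 3 and 0.0637 and 0.0866 without OVOL2 1 and 3. S100A4, a calcium-binding protein linked to motility, fell from 111, 108 and 136 CPM to 42.2, 32.2 and 43.8 CPM (log2 fold change −1.59, SE 0.16, adjusted p = 7.44e-05). S100A16, a relative of it, fell from 29.7, 38.5 and 35.8 CPM to 9.88, 11.9 and 9.86 CPM (log2 fold change −1.72, SE 0.21, adjusted p = 0.000319). They were the 2 calls among 10 tested S100 genes (20%, against 2.96% of all tested genes called lower). Of the 10, 8 had a negative fold change (median −0.36).

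Several of the largest changes fell outside the lists. ZNF165, a zinc-finger protein, had 9.20, 14.9 and 9.83 CPM with mCherry and 77.6, 57.9 and 92.2 CPM with OVOL2 (log2 fold change 2.73, SE 0.23, adjusted p = 8.23e-06). KCNK15, a potassium channel of the KCNK family, rose from 3.45, 3.78 and 2.97 CPM to 14.8, 18.8 and 21.6 CPM (log2 fold change 2.42, SE 0.27, adjusted p = 0.000132). SUSD2, a sushi-domain membrane protein, rose from 12.7, 12.8 and 12.99 CPM to 60.4, 62.9 and 78.5 CPM (log2 fold change 2.39, SE 0.20, adjusted p = 8.23e-06). PADI2, an enzyme that converts arginine to citrulline in proteins, rose from 28.5, 24.2 and 18.2 CPM to 112, 93.6 and 117 CPM (log2 fold change 2.19, SE 0.23, adjusted p = 8.74e-05). In each of these 4 genes every OVOL2 library lay above every mCherry library, which the rule for the largest rises required.

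Downwards, LIX1L fell from 34.3, 58.1 and 46.2 CPM to 6.86, 7.86 and 5.34 CPM (log2 fold change −2.79, SE 0.28, adjusted p = 4.68e-05), and SMIM3, a small membrane protein, from 18.2, 29.6 and 25.8 CPM to 3.02, 4.05 and 5.34 CPM (log2 fold change −2.55, SE 0.32, adjusted p = 0.000373). RTL8B, a gene derived from a retrotransposon with close copies that reads may not separate, fell from 23.9, 20.4 and 16.3 CPM to 4.39, 2.38 and 2.67 CPM (log2 fold change −2.69, SE 0.29, adjusted p = 0.000109). PPP1R14A, an inhibitor of myosin phosphatase, fell from 133, 123 and 141 CPM to 39.0, 41.9 and 47.7 CPM (log2 fold change −1.62, SE 0.13, adjusted p = 8.23e-06). These 4 falls held in every fit without a library. Their groups did not overlap, which the naming rule required of all but PPP1R14A. Of the 12 largest falls by the naming rule, 6 lost their call when 1 library was left out, although the rule admitted only genes with separate groups. EPPK1 had 312, 22.4 and 127 CPM with mCherry, PXYLP1 23.7, 6.35 and 114 CPM and METTL16 208, 15.4 and 69.9 CPM, so 1 mCherry library carried most of the difference. Without that library the adjusted p was 0.0706 for EPPK1 (mCherry 1), 0.235 for PXYLP1 (mCherry 3) and 0.142 for METTL16 (mCherry 1), and leaving out any single OVOL2 library also ended all 3 calls. The others were LOC100652833, lost without mCherry 3 (0.0688), OVOL2 2 (0.0717) or OVOL2 3 (0.0740), USP28, lost without OVOL2 2 (0.0511), and CHST10, lost without mCherry 3 (0.0507). RIT1, among the 12 largest rises, had 128, 331 and 549.7 CPM in the OVOL2 libraries and lost its call in 5 of the 6 fits, with 0.125 without OVOL2 3, 0.0792, 0.0726 and 0.120 without mCherry 1, 2 and 3 and 0.0622 without OVOL2 2.

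Stress genes of the ATF4 response had 5 rises (11.9%, against 2.12% of all tested genes) and 2 falls (4.76%, against 2.96%) among 42 tested members, and 35 were not called (median log2 fold change 0.07). ATF3, a stress-induced transcription factor, stood at 4.37, 4.19 and 3.90 CPM with mCherry and 15.6, 14.1 and 20.3 CPM with OVOL2 (log2 fold change 2.00, SE 0.25, adjusted p = 0.000326). STC2, a secreted glycoprotein, rose from 36.4, 56.4 and 43.8 CPM to 108, 96.7 and 154 CPM (log2 fold change 1.39, SE 0.23, adjusted p = 0.00337). DDIT3, which encodes the factor CHOP, rose from 115, 96.9 and 112 CPM to 209, 193 and 241 CPM (log2 fold change 0.99, SE 0.15, adjusted p = 0.00155). CHAC1, an enzyme that degrades glutathione, rose from 94.1, 77.0 and 69.9 CPM to 139.9, 185 and 167 CPM (log2 fold change 1.03, SE 0.19, adjusted p = 0.00593). The groups did not overlap in any of the 4, and these rises and the falls of ATF5 and PHGDH were called whichever library was left out. In untreated PANC1 STC2 was at 15.01 ± 4.69 CPM, DDIT3 at 66.3 ± 7.61 CPM and CHAC1 at 22.9 ± 4.65 CPM (SD, n = 3), below both transduced groups. Genes of ER stress and chaperones had 4 rises (14.3%, against 2.12% of all tested genes) and 0 falls among 28. The median was 0.35, with a positive fold change in 24. Their rises numbered 2, 1 and 1 without mCherry 1, 2 and 3 and 2, 2 and 1 without OVOL2 1, 2 and 3. HERPUD1, a protein of ER-associated degradation, was the rise called in every fit, from 11.04, 9.18 and 7.61 CPM to 21.1, 20.5 and 26.7 CPM (log2 fold change 1.30, SE 0.20, adjusted p = 0.00174). HSPA5, the ER chaperone BiP, was called with all libraries (log2 fold change 0.64, adjusted p = 0.0402) and in none of the 6 fits without 1 (adjusted p from 0.0545 without OVOL2 2 to 0.141 without OVOL2 3).

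NRF2 targets, which serve detoxification and redox balance, had 4 rises and 4 falls among 35 tested genes. Each count was 11.4% of the list, against 2.12% of all tested genes higher and 2.96% lower. HMOX1, heme oxygenase, rose from 43.0, 45.9 and 32.5 CPM to 112, 105 and 82.2 CPM (log2 fold change 1.30, SE 0.18, adjusted p = 0.000967), and OSGIN1, an oxidative stress-induced gene, from 2.99, 2.70 and 6.49 CPM to 15.1, 11.7 and 15.8 CPM (log2 fold change 1.81, SE 0.34, adjusted p = 0.00641). Both were separated between groups and called whichever library was left out. Rises of this list numbered 3 in each fit without an mCherry library and 4, 2 and 4 without OVOL2 1, 2 and 3, and falls 2, 2 and 1 and then 1, 1 and 2.

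Of 21 tested genes of class I antigen presentation 4 rose (19%, against 2.12% of all tested genes). HLA-E rose from 54.5, 68.6 and 57.3 CPM to 144, 115 and 111 CPM (log2 fold change 1.03, SE 0.15, adjusted p = 0.000967) and HLA-C from 84.2, 89.2 and 81.4 CPM to 167, 155 and 194 CPM (log2 fold change 1.01, SE 0.15, adjusted p = 0.00122). Both encode class I heavy chains, whose near-identical sequences may share reads. TAP1, a subunit of the peptide transporter, rose from 20.9, 16.1 and 17.1 CPM to 33.2, 29.5 and 34.7 CPM (log2 fold change 0.85, SE 0.17, adjusted p = 0.00889). Each OVOL2 library exceeded each mCherry library in the 3 genes. No gene of that list was called lower. Interferon-induced genes had 5 rises (10.9%, against 2.12% of all tested genes) and 2 falls (4.35%, against 2.96%) among 46, with a median of 0.10. Rises numbered 1, 4 and 2 without mCherry 1, 2 and 3 and 3, 3 and 2 without OVOL2 1, 2 and 3, and falls 3, 1 and 3 and then 1 each time. IFITM2, a membrane protein that restricts virus entry and has close paralogs, fell from 186, 168 and 168 CPM to 38.7, 39.8 and 42.9 CPM (log2 fold change −2.10, SE 0.14, adjusted p = 1.38e-06). All 3 OVOL2 libraries were far below the mCherry libraries, and TAP1 and IFITM2 were the members called in every fit.

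Transcripts of the mitochondrial genome had 5 rises (38.5%, against 2.12% of all tested genes) and 0 falls among 13 tested genes. The median log2 fold change was 0.24. ND4, a subunit of complex I, had 28909, 24583 and 27699 CPM with mCherry and 51932, 51223 and 47404 CPM with OVOL2 (log2 fold change 0.89, SE 0.08, adjusted p = 1.76e-05). COX2, a subunit of complex IV, went from 17597, 17415 and 15979 CPM to 21907, 25694 and 23304 CPM (log2 fold change 0.48, SE 0.07, adjusted p = 0.00138), and ATP6, a subunit of ATP synthase, from 32764, 29201 and 29030.3 CPM to 44204, 42385 and 39356 CPM (log2 fold change 0.47, SE 0.07, adjusted p = 0.00178). The groups were apart in these 3 genes, which kept their calls in all fits without 1 library. The list had 4, 4 and 3 rises without mCherry 1, 2 and 3 and 4 in each fit without an OVOL2 library. Untreated PANC1 had 46192 ± 3111 CPM of ND4 and 25980.5 ± 734 CPM of COX2 (SD, n = 3). For ND4 this mean was nearer to the OVOL2 than to the mCherry libraries. For COX2 it lay above every mCherry and every OVOL2 library. ATP6 was at 29914 ± 2012 CPM (SD, n = 3), inside the range of the mCherry libraries. The share of mitochondrial counts given above moves with these rises, and its part in them was not tested. Among 66 nuclear genes of oxidative phosphorylation, 0 were higher and 5 were lower (7.58%, against 2.96% of all tested genes). The fold change was negative in 49 (median −0.11). NDUFB10, a complex I subunit, fell from 150.0, 149 and 136 CPM to 60.1, 65.3 and 72.3 CPM (log2 fold change −1.14, SE 0.14, adjusted p = 0.000319). ATP5MC1, a subunit of the ATP synthase ring, fell from 310.4, 281 and 326 CPM to 147, 166 and 178 CPM (log2 fold change −0.90, SE 0.15, adjusted p = 0.00387), and NDUFS8 from 121, 135 and 132 CPM to 80.4, 85.0 and 78.1 CPM (log2 fold change −0.67, SE 0.12, adjusted p = 0.00454). These falls and that of ATP5MC2 were called whichever library was left out, and the 3 genes given by library did not overlap between groups.

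GAPDH, a glycolytic enzyme whose pseudogenes may share its reads, fell from 1088, 1309.7 and 1204 CPM to 799.7, 612 and 701 CPM (log2 fold change −0.77, SE 0.14, adjusted p = 0.00454). It was the fall called in each fit without a library among 34 genes of glycolysis and hypoxia response. That list had 2 falls (5.88%, against 2.96% of all tested genes) and 0 rises. The other, LDHA (log2 fold change −0.46, adjusted p = 0.0262), lost its call in all 6 fits, with adjusted p from 0.0611 without OVOL2 1 to 0.118 without OVOL2 3. Sterol synthesis and uptake had 2 falls among 24 genes (8.33%) and fatty acid synthesis 1 among 28 (3.57%), against 2.96% of all tested genes. TM7SF2 and DGAT1, both among these falls, were each lost in at least 2 fits without a library. Sterol falls numbered 2, 0 and 1 without mCherry 1, 2 and 3 and 2, 0 and 1 without OVOL2 1, 2 and 3, and the fall of DGAT1 was called only without mCherry 1. Of 74 ribosomal protein genes 1 fell (1.35%, below the 2.96% of all tested genes), and 55 had a negative fold change (median −0.08). The summed share of these genes was 10.4% to 11.1% of counts with mCherry and 9.71% to 10.2% with OVOL2.

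Among genes of mitosis 7 of 44 fell (15.9%, against 2.96% of all tested genes) and 0 rose. The fold change was negative in 42, and the median was −0.41. The falls numbered 6, 4 and 4 without mCherry 1, 2 and 3 and 5, 8 and 3 without OVOL2 1, 2 and 3. CENPA, the histone of centromeres, fell from 22.8, 21.7 and 19.5 CPM to 12.3, 8.34 and 9.86 CPM (log2 fold change −1.07, SE 0.20, adjusted p = 0.00664). BUB1B, a kinase of the spindle checkpoint, fell from 39.8, 36.5 and 38.6 CPM to 21.1, 22.9 and 18.7 CPM (log2 fold change −0.87, SE 0.16, adjusted p = 0.00523). These 2 falls were called in every fit without a library, and their groups were apart. In the DNA replication list 2 of 47 genes were lower (4.26%, close to the 2.96% of all tested genes). A negative fold change was seen in 37 (median −0.31, against −0.02 over all tested genes). MCM3, a subunit of the replicative helicase, fell from 76.2, 78.0 and 89.8 CPM to 49.7, 54.1 and 48.1 CPM (log2 fold change −0.68, SE 0.13, adjusted p = 0.0063), whichever library was left out. TYMS, thymidylate synthase, was lower with all libraries (log2 fold change −0.97, adjusted p = 0.0378) but in none of the 6 fits without 1 (adjusted p from 0.0525 without mCherry 1 to 0.149 without mCherry 2). TP53I3, a p53 target, rose from 11.7, 17.6 and 16.3 CPM to 34.0, 35.5 and 34.1 CPM (log2 fold change 1.17, SE 0.19, adjusted p = 0.00276), with no overlap. Untreated PANC1 had 23.6 ± 5.38 CPM (SD, n = 3) of it.

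The remaining lists had few calls, and most of these were lost when 1 library was left out. NF-kB and inflammatory secreted genes had 1 rise (LTB) and 2 falls among 33. These were 3.03% and 6.06% of the list, against 2.12% and 2.96% of all tested genes. The fall of CCL2, a chemokine of monocytes (log2 fold change −1.01, adjusted p = 0.0476), was called in 1 of the 6 fits without a library. That fit was the one without OVOL2 3, and the adjusted p was up to 0.161 without another library (OVOL2 1). Targets of p53 and CDK inhibitors had 2 rises and 1 fall among 27 (7.41% and 3.7%, against 2.12% and 2.96% of all tested genes). Apart from TP53I3 these were SFN, an adaptor of the 14-3-3 family (log2 fold change 0.75, adjusted p = 0.0182), lost without mCherry 2 (0.0684), mCherry 3 (0.0861) or OVOL2 3 (0.0872), and CDKN2C, an inhibitor of CDK4 and CDK6 (log2 fold change −1.87, adjusted p = 0.0194), lost without mCherry 3 (0.0610), OVOL2 2 (0.0651) or OVOL2 3 (0.0844). Other receptor tyrosine kinases and their ligands had 1 rise and 1 fall among 38. Each was 2.63% of the list, close to the 2.12% and 2.96% of all tested genes. DDR1, a collagen receptor (log2 fold change 0.86, adjusted p = 0.014), was lost without mCherry 2 (0.0661), mCherry 3 (0.0531) or OVOL2 2 (0.0506), and VEGFC, a lymphatic growth factor (log2 fold change −1.17, adjusted p = 0.0344), was called only without mCherry 2, with up to 0.129 otherwise (without mCherry 3). Of 32 nuclear pore genes AAAS was lower (log2 fold change −0.76, adjusted p = 0.0449), a call kept only without OVOL2 2, with up to 0.181 otherwise (without OVOL2 3). This 1 call was 3.12% of the list, close to the 2.96% of all tested genes.

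**Figure D3:**
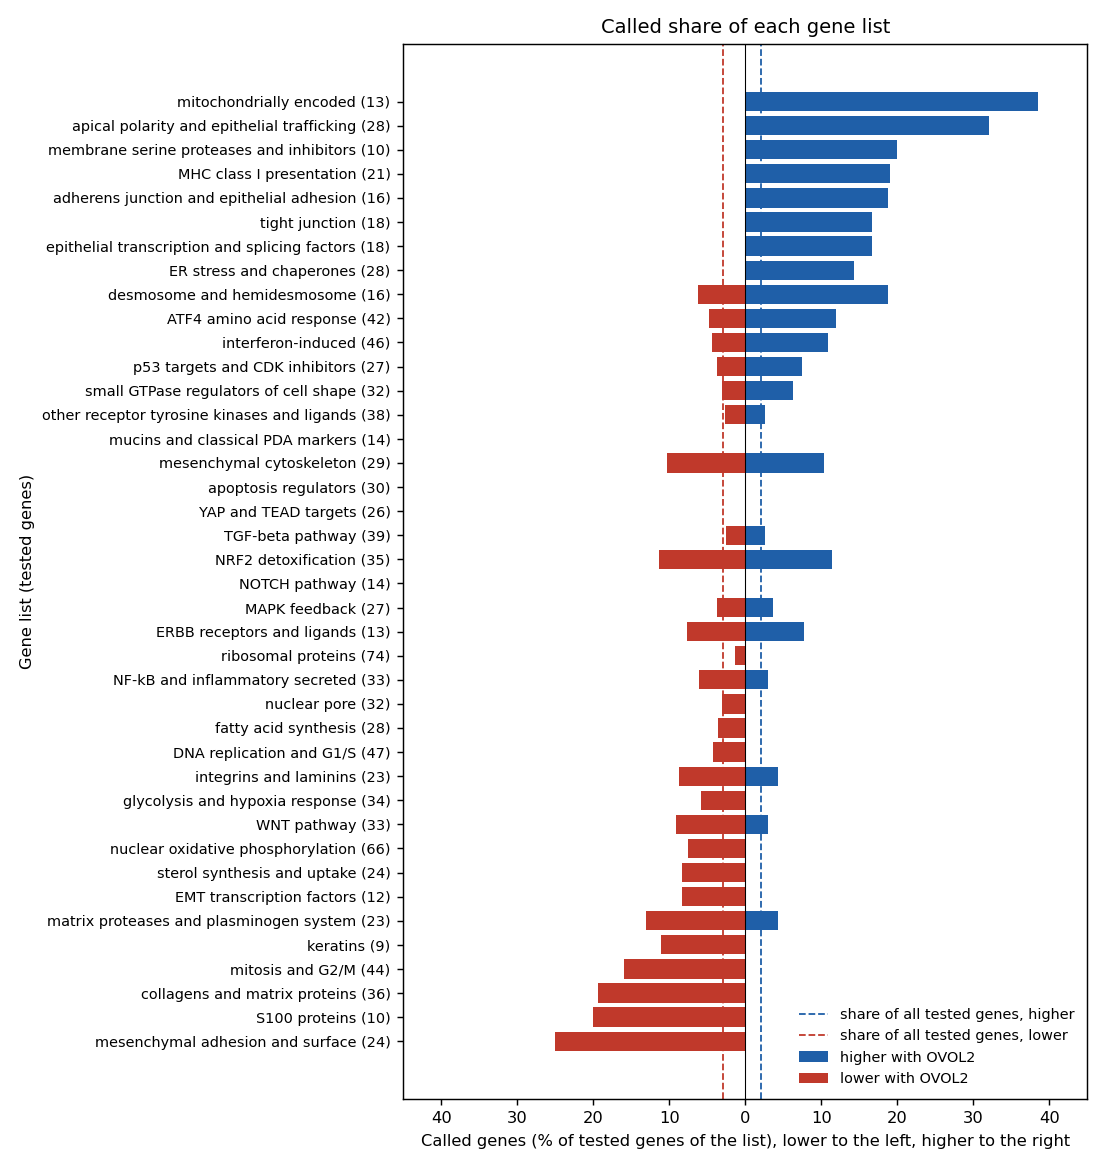
For each gene list, the share of its tested genes called higher (blue, to the right) and lower (red, to the left) with OVOL2, in percent, with the number of tested genes in parentheses. Dashed lines mark the shares over all tested genes, 2.12% higher and 2.96% lower. Mitochondrially encoded genes (5 of 13) and polarity genes (9 of 28) reach furthest to the right, and mesenchymal adhesion genes (6 of 24) and S100 proteins (2 of 10) stand among the lists furthest to the left.

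The same OVOL2 and mCherry open reading frames were also compared in PANC1 that carried M2rtTA, in 6 other libraries, which allowed the effect of OVOL2 to be compared between the arms. The question was where the effect without M2rtTA differed from that with M2rtTA. With M2rtTA 1843 of 13218 genes were called (13.9%). The difference between the effects passed for 18 genes, 0.136% of those tested, with 11 more positive (0.0832%) and 7 more negative (0.053%) without M2rtTA. The count ranged from 6, without mCherry 1 or 2 of the M2rtTA arm, to 19, without mCherry 3 of that arm. For the main epithelial and mesenchymal genes no difference was called. The log2 fold change was 2.52 (SE 0.16) without M2rtTA and 2.58 (SE 0.16) with it for EPCAM, 3.03 (SE 0.20) without M2rtTA and 3.05 (SE 0.20) with it for KDF1 and −2.05 (SE 0.11) without M2rtTA and −1.92 (SE 0.11) with it for VIM. It was 1.95 (SE 0.36) without M2rtTA and 2.31 (SE 0.35) with it for CDH1, −2.30 (SE 0.35) without M2rtTA and −1.77 (SE 0.34) with it for ZEB1 and 3.88 (SE 0.32) without M2rtTA and 3.15 (SE 0.31) with it for WNT9A. Adjusted p of the difference ran from 0.59 for WNT9A to 0.992 for KDF1 among these 6, which does not show that the effects were equal.

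ALPG, a placental-type alkaline phosphatase with close paralogs, showed the largest difference among the 10 genes named by the rule: 0.55 (SE 0.21) without M2rtTA and 3.90 (SE 0.22) with it (difference −3.35, adjusted p = 0.000123). Its mCherry and OVOL2 libraries without M2rtTA, 5.75, 6.89 and 8.35 and 8.23, 12.1 and 10.5 CPM, overlapped by 1 library. CTSV was 1.93 (SE 0.17) without M2rtTA and 4.69 (SE 0.18) with it (difference −2.75, adjusted p = 0.000123), and SUSD2 2.39 (SE 0.20) without M2rtTA and 4.89 (SE 0.22) with it (difference −2.50, adjusted p = 0.00115). Both genes thus rose in each arm, by less without M2rtTA. NID1, nidogen of basement membranes, was 0.35 (SE 0.19) without M2rtTA and 2.51 (SE 0.19) with it (difference −2.16, adjusted p = 0.00294). TPM2, a tropomyosin, was −0.05 (SE 0.12) without M2rtTA and −1.32 (SE 0.12) with it (difference 1.27, adjusted p = 0.00572). In these 5 genes the difference was called under every alternative. AAAS, a nuclear pore protein, was −0.76 (SE 0.20) without M2rtTA and −2.78 (SE 0.22) with it (difference 2.01, adjusted p = 0.0146) and lost this call without mCherry 2 (0.0545) or OVOL2 1 (0.0531) of the M2rtTA arm. BMERB1 was −0.53 (SE 0.13) without M2rtTA and −1.79 (SE 0.13) with it (difference 1.27, adjusted p = 0.0142) and lost it without mCherry 1 of the M2rtTA arm (0.0660). The differences of MRNIP (1.08), MAP9 (1.33) and KRT81 (−2.38), each with an adjusted p of 0.0215, were lost in 9, 9 and 8 of the 12 fits without a library. MRNIP was called only without mCherry 3, OVOL2 1 or OVOL2 2 of the M2rtTA arm, with up to 0.109 otherwise. MAP9 was called only without mCherry 1 or OVOL2 3 of the arm without M2rtTA or mCherry 3 of the M2rtTA arm, and KRT81 only without mCherry 2 or OVOL2 1 of the arm without M2rtTA or mCherry 3 or OVOL2 3 of the M2rtTA arm, with up to 0.0869 and 0.0963 otherwise.

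**Figure D4:**
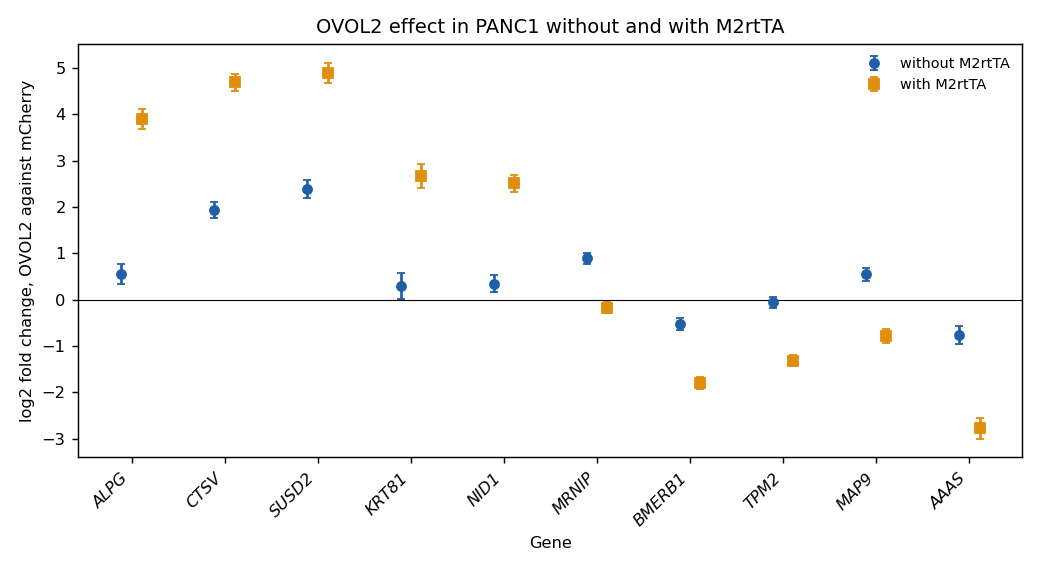
log2 fold change of OVOL2 against mCherry in PANC1 without M2rtTA (blue circles) and with M2rtTA (orange squares) for 10 genes. They are the 5 with the smallest p for the difference in each direction, ordered by the difference. Bars are the SE of the fit, and the difference ranges from −3.35 for ALPG to 2.01 for AAAS.

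KP4 and PK45H, 2 further established PDA lines, received OVOL2 or mCherry without M2rtTA in the same way. The effect in PANC1 was tested against the mean of the effects in these lines, in a fit of the 18 libraries of the 3 lines. Of 13876 genes 63 passed (0.454%), with 26 differences upwards (0.187%) and 37 downwards (0.267%), and the count ranged from 21, without PANC1 mCherry 3, to 53, without KP4 OVOL2 1. WNT9A changed by 3.89 (SE 0.34) in PANC1, 2.34 (SE 0.35) in KP4 and −0.26 (SE 0.36) in PK45H (difference 2.85, adjusted p = 0.00643). SUSD2 changed by 2.40 (SE 0.25) in PANC1, 0.51 (SE 0.31) in KP4 and −0.23 (SE 0.34) in PK45H (difference 2.25, adjusted p = 0.00657). For KRT19 the changes were −1.06 (SE 0.13) in PANC1, 0.15 (SE 0.13) in KP4 and 1.14 (SE 0.13) in PK45H (difference −1.71, adjusted p = 8.67e-05). IFITM2 gave −2.10 (SE 0.19) in PANC1, 0.45 (SE 0.20) in KP4 and −1.31 (SE 0.20) in PK45H (difference −1.67, adjusted p = 0.00461), and its paralog IFITM3 −0.42 (SE 0.14) in PANC1, 0.94 (SE 0.14) in KP4 and 0.72 (SE 0.14) in PK45H (difference −1.26, adjusted p = 0.00461). In KRT19, IFITM2 and IFITM3 the estimate was lower in PANC1 than in either other line. SCD, a desaturase of fatty acids, gave −0.39 (SE 0.12) in PANC1, 1.32 (SE 0.12) in KP4 and 0.93 (SE 0.12) in PK45H (difference −1.51, adjusted p = 8.67e-05). Its estimate was thus negative in PANC1 and positive in both other lines. ND4 gave 0.90 (SE 0.06) in PANC1, 0.02 (SE 0.06) in KP4 and 0.14 (SE 0.06) in PK45H (difference 0.82, adjusted p = 8.67e-05), and H1-2, a linker histone, 1.48 (SE 0.17) in PANC1, −0.45 (SE 0.17) in KP4 and 0.35 (SE 0.18) in PK45H (difference 1.52, adjusted p = 0.00461). RGS4, a regulator of G protein signals, gave 0.23 (SE 0.16) in PANC1, −0.80 (SE 0.15) in KP4 and −1.36 (SE 0.16) in PK45H (difference 1.31, adjusted p = 0.00545). All 9 differences given here were called under each of 25 alternatives. EPCAM changed by 2.52 (SE 0.15) in PANC1, 2.19 (SE 0.15) in KP4 and 1.83 (SE 0.15) in PK45H and KDF1 by 3.04 (SE 0.26) in PANC1, 3.57 (SE 0.28) in KP4 and 2.35 (SE 0.27) in PK45H, and no difference was called for them (adjusted p = 0.252 and 0.959).

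**Figure D5:**
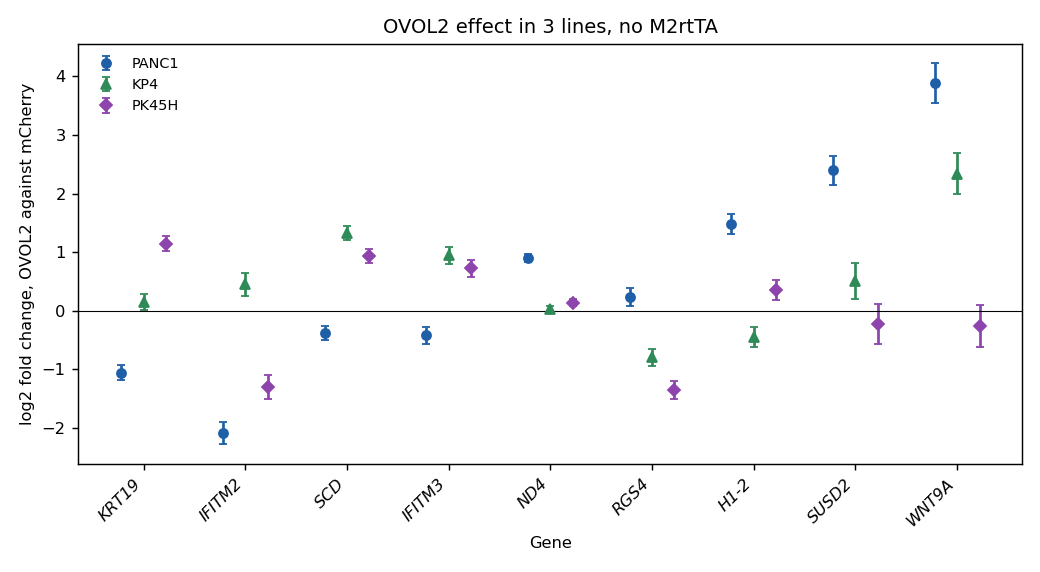
log2 fold change of OVOL2 against mCherry without M2rtTA in PANC1 (blue circles), KP4 (green triangles) and PK45H (purple diamonds) for 9 genes. They are among the 5 with the smallest p in each direction for the difference between PANC1 and the mean of the other lines. Bars are the SE of the fit. WNT9A and SUSD2 stand highest in PANC1, and KRT19 and IFITM2 lowest.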

How the data were processed

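The deposited values were counts: whole numbers per gene symbol from the authors, 25421 rows in 51 columns, each matched to a sample by its label's description. The submitters' processing notes name kallisto 0.44.0 and GRCh38; how molecular identifiers and multi-mapping reads were handled is not given in the sources used here, so counts may include amplification copies. Groups came from titles and treatment labels. The 15 PANC1 libraries of 5 groups entered 1 fit in edgeR 4.0.16 (R 4.3.3): filterByExpr, TMM scaling, two-sided quasi-likelihood test, Benjamini-Hochberg over all tested genes. SE was derived from the test statistic. Differences of effects were contrasts in that fit or in one of 18 libraries of 3 lines. Named genes were OVOL2, CDH1, EPCAM, ESRP1, ZEB1 and VIM, the 12 largest rises and falls with at least 5 CPM, separate groups and no dominating library, the 5 smallest p per direction here and for each difference of effects, and up to 4 called genes per list; calls lost without 1 library are mostly given as counts. The members and the 45 gene lists were chosen with earlier results of these data known, and 5 lists after their values were seen. Alternatives were RLE scaling, other filters, DESeq2 1.42.0, the replicate block, thinning, robust dispersion, fewer or more libraries, and each library left out. Replicate numbers did not pair libraries. Some genes that the rule picks are not reported here. The scripts were tested on simulated data.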

Additional observations from a re-analysis of the deposited data

Results flagged for a closer look

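Both comparisons of effects gave differences by their own test, an interaction contrast in edgeR's quasi-likelihood model. Between the PANC1 arms without and with M2rtTA, 18 genes had an OVOL2 effect that differed. Those named were ALPG (−3.35), CTSV (−2.75), SUSD2 (−2.50), KRT81 (−2.38), NID1 (−2.16), MRNIP (1.08), BMERB1 (1.27), TPM2 (1.27), MAP9 (1.33) and AAAS (2.01), as log2 effect without M2rtTA minus log2 effect with it. AAAS lost its call without mCherry 2 (adjusted p = 0.0545) or OVOL2 1 (0.0531) of the M2rtTA arm, BMERB1 without mCherry 1 of that arm (0.0660), and MRNIP, MAP9 and KRT81 in 8 or 9 of 12 fits without a library.

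Between PANC1 and the mean of KP4 and PK45H, 63 genes had an OVOL2 effect that differed. Those named were KRT19 (−1.71), IFITM2 (−1.67), SCD (−1.51), IFITM3 (−1.26), ND4 (0.82), RGS4 (1.31), H1-2 (1.52), SUSD2 (2.25) and WNT9A (2.85), as log2 effect in PANC1 minus the mean of the other lines. These 9 genes stayed past the threshold when any of the 18 libraries was left out. No group had more than 3 libraries, so single libraries were not tested for standing apart within a group.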

How the results depend on the processing

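The 671 calls of OVOL2 against mCherry became 302 when only the 6 libraries compared were fitted, and 343 (without mCherry 3) to 422 (without mCherry 1) when 1 library was left out. RLE scaling, other filters, DESeq2, thinning, robust dispersion and the fit of 18 libraries gave 499 to 915, and leaving out the 260 genes that 1 library dominates, an alternative chosen after seeing the data, gave 713. Same-numbered libraries did not deviate together (correlations −0.00739, −0.00372 and 0.0108), so the replicate block rests on a shared number only; with the replicate block the calls were 521 for OVOL2 against mCherry, 10 for the difference between the M2rtTA arms and 41 for the difference between lines. For the M2rtTA difference (18 genes) DESeq2 gave 131 and leaving out 1 library 6 to 19, under 12 in every such fit but those without OVOL2 1 (12) and without mCherry 3 of the M2rtTA arm (19). For the difference between lines (63 genes) DESeq2 gave 256, no filter on low counts 41, thinning to the smallest total 34 and leaving out 1 library 21 (without PANC1 mCherry 3) to 53, with 42 or more only without KP4 mCherry 2 or OVOL2 1, PANC1 mCherry 2, and PK45H mCherry 2 or 3. The cause was not tested. The OVOL2 row (log2 fold change −0.44) ran from −0.94 without OVOL2 2 to 0.48 without mCherry 2 (adjusted p = 0.862), and reversed also without OVOL2 3 (0.087, adjusted p = 0.978), on 1 to 16 counts per library. Of 118 called genes picked by the naming rule, 68 kept their call under every alternative, 48 lost it when 1 library was left out, 11 with the replicate block and 0 with DESeq2. Totals of 3824271 to 7490556 counts limit genes of a few CPM most.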

Other observations

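In 5 gene groups listed only after their values were seen, counts are descriptions and support nothing. Genes of lysosomes and autophagy had 15 rises and 0 falls among 88 tested (median log2 fold change 0.41), against 2.12% of all tested genes higher. The rises numbered 7, 4 and 6 without mCherry 1, 2 and 3 and 6, 8 and 5 without OVOL2 1, 2 and 3. OPTN, an autophagy receptor, had 26.7, 27.4 and 33.9 CPM with mCherry and 56.0, 53.1 and 72.9 CPM with OVOL2 (log2 fold change 1.05, SE 0.18, adjusted p = 0.00349). ATP6V1G1, a subunit of the proton pump of lysosomes, had 35.9, 36.7 and 32.8 CPM with mCherry and 61.2, 73.1 and 60.0 CPM with OVOL2 (log2 fold change 0.88, SE 0.14, adjusted p = 0.00173). These 2 were called whichever library was left out. Replication-dependent histones had 6 rises and 0 falls among 19 (median 1.18), 5 of them called in every fit without a library. H4C8, which encodes histone H4, had 17.03, 15.4 and 13.5 CPM with mCherry and 43.6, 45.7 and 37.8 CPM with OVOL2 (log2 fold change 1.47, SE 0.18, adjusted p = 0.000262). Histone genes are near copies of one another, so reads may not separate them.

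Enzymes of fatty acid oxidation had 0 rises and 5 falls among 27 (median −0.27), against 2.96% of all tested genes lower, with 3 to 4 falls when 1 library was left out (3 without OVOL2 2). ACAT1, a mitochondrial thiolase, had 57.5, 51.6 and 52.3 CPM with mCherry and 25.5, 26.4 and 20.5 CPM with OVOL2 (log2 fold change −1.16, SE 0.16, adjusted p = 0.000723). ECH1, which handles unsaturated fatty acids, had 390.2, 363 and 422 CPM with mCherry and 151, 191 and 216 CPM with OVOL2 (log2 fold change −1.07, SE 0.16, adjusted p = 0.00148). In both genes every OVOL2 library was below every mCherry library. Glutathione enzymes had 2 rises and 7 falls among 25 (median −0.22). Without mCherry 1, 2 or 3 they had 3 falls, and without OVOL2 1, 2 and 3 they had 2, 2 and 3. GPX1, a glutathione peroxidase, had 64.0, 71.6 and 75.1 CPM with mCherry and 33.7, 35.7 and 30.8 CPM with OVOL2 (log2 fold change −1.07, SE 0.18, adjusted p = 0.00281), with no overlap. Metallothioneins, small metal-binding proteins with near-identical genes, had 3 falls and 0 rises among 7 (median −0.77), and 2 falls without mCherry 3, OVOL2 2 or OVOL2 3. MT1E had 170.5, 138 and 147 CPM with mCherry and 67.5, 41.2 and 78.7 CPM with OVOL2 (log2 fold change −1.28, SE 0.25, adjusted p = 0.00902), the groups being apart.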
